A study of Mus musculus with 58 samples.

Results

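Transcripts of 8 genes of the death receptor pathway, Fas, Tnfrsf10b, Tnfrsf1a, Fadd, Tradd, Ripk1, Casp8 and Cflar, were followed in lung, liver and forestomach of mice gavaged with indeno(123,cd)pyrene (IP), a polycyclic aromatic hydrocarbon. The genes were chosen by name as the receptors, adaptors, kinase, initiator caspase and caspase inhibitor of extrinsic apoptosis, with earlier results of these data known. They are 8 of 20678 distinct gene names on the array and are read by 11 of 55681 different probes. All 58 arrays came from adult male Muta™Mouse, a transgenic strain, aged about 13 weeks, that were given olive oil alone (vehicle) or IP every day, 28 times in all. The daily IP doses of 12.5 (lowest), 25 (middle) and 50 (highest) mg/kg-bw are named in this way. Tissue was taken 72 h after the last dose. Each IP group held 5 mice in every tissue, and the vehicle group held 5 mice in lung and 4 each in liver and forestomach. The labels name 5 vehicle lungs where the extraction and animal methods give 4 vehicle mice, and all 5 were used. Tissues with the same mouse number were taken as coming from the same mouse, and p-values measure the spread between mice. Each array compared Cy5-labelled RNA of 1 mouse with the same Cy3-labelled reference, a pool of RNA from 11 mouse cell lines. A value is therefore a log2 ratio of sample to reference, in which 0 means the level of the pool, and levels of different genes cannot be ranked against each other.

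In extrinsic apoptosis, ligands of the tumour necrosis factor family draw death receptors on the cell surface together. Fas and Tnfrsf10b, the receptor for TRAIL in the mouse, recruit the adaptor Fadd, which gathers procaspase-8 molecules so that they activate one another. Tnfrsf1a, the main receptor for tumour necrosis factor, first recruits Tradd and the kinase Ripk1 and drives NF-kB signalling, and only a second complex holds Fadd and caspase-8. Cflar encodes c-FLIP, a relative of caspase-8 that competes for its place on Fadd and restrains its activation. Fas and Tnfrsf10b are known p53 targets and Cflar a known NF-kB target. Hepatocytes are known for their sensitivity to Fas.

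The reference sequences upstream of 3 genes are shown because the results below turn on them: Fadd had the lowest p with dose, in lung, Cflar the largest difference with dose, in liver, and Fas the largest between tissues. Each is the 250 bases before the annotated start of transcription from RefSeq, build GRCm38.p6, written 5′ to 3′ on the gene's own strand. Capitals mark the core of the xenobiotic response element, GCGTG, searched on both strands, to which the aryl hydrocarbon receptor binds.
Fadd (chr7:144582442-144582691, minus strand): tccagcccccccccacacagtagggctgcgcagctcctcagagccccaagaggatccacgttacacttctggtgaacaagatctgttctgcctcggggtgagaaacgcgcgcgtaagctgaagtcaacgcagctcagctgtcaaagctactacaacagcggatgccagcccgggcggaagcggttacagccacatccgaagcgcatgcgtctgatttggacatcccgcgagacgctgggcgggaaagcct
Cflar (chr1:58711241-58711490, plus strand): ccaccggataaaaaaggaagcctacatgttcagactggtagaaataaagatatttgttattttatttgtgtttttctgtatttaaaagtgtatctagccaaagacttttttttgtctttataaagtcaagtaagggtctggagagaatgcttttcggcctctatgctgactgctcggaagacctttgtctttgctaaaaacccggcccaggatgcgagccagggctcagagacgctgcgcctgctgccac
Fas (chr19:34290409-34290658, plus strand): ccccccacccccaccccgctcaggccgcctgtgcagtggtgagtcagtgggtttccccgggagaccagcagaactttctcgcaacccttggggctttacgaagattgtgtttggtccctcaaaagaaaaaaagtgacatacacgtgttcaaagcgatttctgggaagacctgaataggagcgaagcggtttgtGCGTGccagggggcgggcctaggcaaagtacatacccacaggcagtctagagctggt

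The windows differed in base composition. G and C made up 60.4% of the Fadd window, 42.8% of that of Cflar and 56.4% of that of Fas, against a median of 52.4% over 32851 such windows of all genes. The core stood once in the Fas window and not in those of Fadd and Cflar, and 28.2% of all windows held it. Of the 6 genes with a window in the table, Ripk1 also held the core, in each of its 2 annotated windows, and Casp8 and Tnfrsf1a did not. No window of these 6 genes held the NF-kB consensus, found in 3.9% of all windows, or the p53 half-site, found in 7.13%. These are matches of letters and say nothing of binding.

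All 11 probes lay well above background, by the scanner software's own test, on nearly every array. The exceptions were the Tnfrsf10b probe, at background on 1 of 19 liver arrays, and 1 of the 3 Cflar probes, at background on 2 of 19 forestomach arrays. No member was saturated. Where a gene had several probes, the brightest was used, and values of the others are given for the main results. The labelled tissues carried their markers: the mean of 5 lung genes lay between 6.53 and 7.16 in vehicle lung, that of 5 liver genes between 7.08 and 8.12 in vehicle liver, and that of 5 squamous epithelium genes between 3.56 and 4.18 in vehicle forestomach.

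Parts of the arrays stood apart from the rest in ways that touch the results. In lung, the mean of 5 fat cell genes (Adipoq, Plin1, Cidea, Ucp1 and Fabp4) lay between 2.54 and 4.605 in 4 of 5 vehicle mice, and between 0.63 and 1.92 in the 15 IP mice and the remaining vehicle mouse, at 0.92. Other genes moved with the same contrast. All 4 mesothelium genes were lower at each dose, by medians of -0.59, -1.22 and -0.82 at the rising doses (unadjusted p under 0.05 for 0, 4 and 1 of them, none called), as were all 5 heart muscle genes, by -1.20, -1.47 and -1.20 (0, 2 and 0, none called). The mean of the mesothelium genes ranged from -0.34 to 0.54 in vehicle lungs and from -1.61 to 0.31 at the highest dose, and that of the heart muscle genes from 2.00 to 4.12 and from 0.45 to 2.74. Their part in the results was not tested. In forestomach, the mean of 7 glandular stomach genes such as Atp4a, Gkn1 and Tff2 fell into separate ranges: 0.41 to 1.80 on 9 arrays and 5.14 to 6.96 on 10. The second range held 3 of 4 vehicle mice and 2, 2 and 3 of 5 mice at the lowest, middle and highest dose. In liver, between 66.6% and 78.9% of probes were well above background on 5 arrays, against 37.6% to 45.0% on the other 14. These brighter liver arrays were 0 of 4 vehicle mice and 1, 2 and 2 of 5 mice at the lowest, middle and highest dose. In forestomach, 2 arrays, at the lowest and the highest dose, passed 60%.

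The first comparison asked how the 8 genes differed between the tissues of vehicle mice. Fas was highest in lung, lower in liver and lowest in forestomach, and Tnfrsf10b was lower in liver than in both other tissues. Cflar and Casp8 were lower in forestomach than in lung, and Ripk1 was higher in liver than in lung and forestomach. A difference was called where limma gave an adjusted p no higher than 0.05 (Benjamini-Hochberg, over all probes) with a change of 1.5-fold or more (0.585 on the log2 scale). By that rule 3 of 8 genes differed between lung and liver, where 26.9% of all probes were called. The same number, 3 of 8, differed between forestomach and lung (19.5% of all probes) and 4 of 8 between forestomach and liver (22.7% of all probes). With arrays centred on their median in place of loess, the calls of Fas, Ripk1 and Cflar between forestomach and liver and that of Ripk1 between lung and liver were lost. Liver arrays were run on 3 slides of their own and read with a later version of the scanner software, so differences between liver and the other tissues cannot be told apart from those of slide and scan. Lung and forestomach shared their 5 slides, but always at different array positions, so tissue and position cannot be told apart there.

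Among the receptors, Fas read 1.84, 2.43, 2.64, 2.51 and 2.29 in vehicle lung, 0.93, 1.46, 1.22 and 1.23 in liver, and in forestomach 0.38, 0.18, 0.14 and 0.27. The 3 tissues did not overlap. Lung exceeded liver by 1.14 ± 0.15 (log2 difference ± SE, adjusted p = 8.08e-09, limma), or 2.20-fold. Forestomach lay 2.10 below lung (log2 difference -2.10 ± 0.15, adjusted p = 6.49e-17, limma), which is 4.28-fold, and 0.96 below liver (-0.96 ± 0.16, adjusted p = 1.52e-06, limma). The last of these was -0.42 with median centring (adjusted p = 0.467, limma). This order also held over all doses, at 2.28 ± 0.23 (SD, n = 20) in lung, 1.42 ± 0.19 (n = 19) in liver and 0.26 ± 0.31 (n = 19) in forestomach.

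Tnfrsf10b read -0.77, -0.02, -0.98, -1.06 and -0.95 in vehicle lung, -2.30, -2.67, -2.25 and -2.35 in liver, and in forestomach -1.39, -1.01, -0.96 and -1.05. Liver lay below every array of the other tissues. Lung exceeded liver by 1.64 ± 0.18 (adjusted p = 5.73e-11, limma) and forestomach exceeded liver by 1.29 ± 0.19 (adjusted p = 1.56e-07, limma). Lung and forestomach differed by -0.35 (95% interval -0.71 to 0.02), which did not pass. The Tnfrsf1a levels were closer together, 0.68 ± 0.09 (SD, n = 5) in lung, 0.18 ± 0.05 (n = 4) in liver and 0.40 ± 0.07 (n = 4) in forestomach. Its largest difference, 0.50 ± 0.10 between lung and liver, had an adjusted p of 3.3e-05 (limma) and was 1.42-fold, under the limit on size. On the second Tnfrsf1a probe it was 0.27 ± 0.12.

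Of the adaptors, Fadd read 0.18, -0.13, -0.07, 0.02 and -0.04 in vehicle lung, 0.30, 0.08, 0.59 and 0.54 in liver, and in forestomach 0.15, -0.30, 0.12 and 0.00. It was higher in liver than in lung by 0.39 on the log2 scale (lung minus liver -0.39 ± 0.11, adjusted p = 0.00403, limma), or 1.31-fold, and lung and forestomach differed by -0.00 ± 0.11. Tradd was highest in forestomach, which exceeded liver by 0.44 ± 0.12 (1.36-fold, adjusted p = 0.0017, limma). Neither adaptor reached 1.5-fold between any pair of tissues. The kinase Ripk1 read 0.65, 0.96, 0.63 and 0.62 in vehicle liver, above all 5 lung arrays (-0.43 to 0.26) and all 4 forestomach arrays (-0.41 to -0.16). It was 1.81-fold higher in liver than in lung (lung minus liver -0.86 ± 0.13, adjusted p = 1.87e-07, limma) and 2.02-fold higher than in forestomach (-1.01 ± 0.14, adjusted p = 1.61e-08, limma). With median centring Ripk1 in forestomach minus liver was -0.40 (adjusted p = 0.414, limma), and the difference between lung and liver had the other sign for Ripk1 (0.35) and for Fadd (0.72), as did that of Fadd between forestomach and liver (0.17) and that of Tradd between forestomach and lung (-0.29).

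The initiator caspase, Casp8, read 0.31, 0.45, -0.04, -0.01 and 0.28 in vehicle lung, -0.24, -0.02, -0.25 and -0.69 in liver, and in forestomach -0.85, -0.54, -0.39 and -0.53. It was 1.71-fold lower in forestomach than in lung (-0.78 ± 0.17, adjusted p = 0.000287, limma). Casp8 also differed with the level of the glandular stomach genes. Over all doses it lay between -0.54 and 0.07 on the 10 forestomach arrays with high levels of them and between -0.92 and -0.54 on the 9 with low levels. Those ranges nearly met, since the highest of the lower range and the lowest of the upper both round to -0.54. How many of all probes separate in this way was not counted. The ranges of every other member overlapped between these kinds of array. Lower Casp8 in forestomach than in lung was seen on both kinds of array, and the part of glandular tissue in the difference was not tested. In such bulk samples, fewer cells of a type and less RNA per cell cannot be told apart.

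The inhibitor Cflar showed a pattern that depended on the probe. The brightest probe, designed on transcript NM_207653, read 1.93, 2.08, 1.65, 1.66 and 1.39 in vehicle lung, 1.57, 1.61, 1.66 and 1.40 in liver, and in forestomach 0.39, 0.53, 0.49 and 0.64. Lung and liver overlapped, while forestomach lay 2.34-fold below lung (-1.23 ± 0.15, adjusted p = 3.56e-09, limma) and 2.07-fold below liver (-1.05 ± 0.16, adjusted p = 4.22e-07, limma). The latter was -0.37 with median centring (adjusted p = 0.353, limma). A further probe for the same transcript gave -0.95 ± 0.19 and -1.02 ± 0.20 in those comparisons. The probe for transcript NM_009805 instead set liver apart: lung lay 1.51 below liver (-1.51 ± 0.17, adjusted p = 7.14e-11, limma) and forestomach 1.71 below (-1.71 ± 0.18, adjusted p = 1.26e-11, limma), and forestomach and lung differed by -0.19 ± 0.17. Cflar makes a long and a short form of its protein. Which form each probe reads was not examined here.

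**Figure D1:**
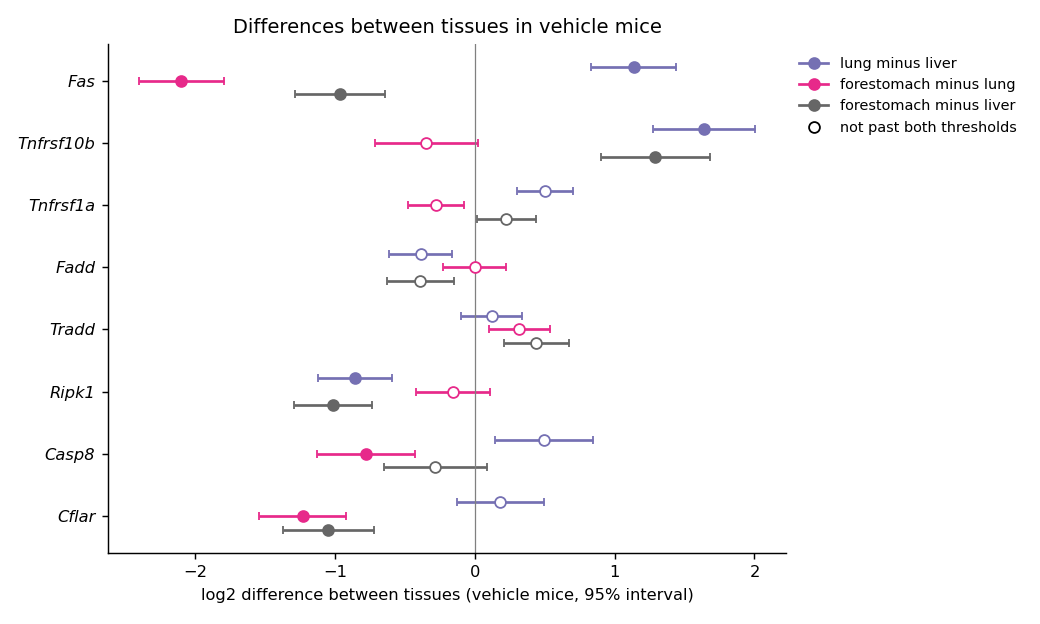
Log2 difference between tissues in vehicle mice for each gene (points, brightest probe) with its 95% interval (bars), for lung minus liver, forestomach minus lung and forestomach minus liver. Filled points passed both thresholds: Fas in all 3 comparisons, Tnfrsf10b, Ripk1 and Cflar in 2 each, and Casp8 in 1.

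The main comparison asked whether repeated IP changed these genes. None did by the rule above: at each dose in each tissue 0 of 8 genes was called (limma). Over all probes, 0, 0.0126 and 0.079% were called in lung at the lowest, middle and highest dose, and 0% at every dose in liver and in forestomach. Of the 72 comparisons of 1 gene at 1 dose in 1 tissue, 17 had an unadjusted p under 0.05. In lung these were 1, 3 and 3 of 8 genes at the rising doses, where 3.92, 6.53 and 8.8% of all probes were past that level. In liver they were 1, 0 and 4 genes (2.6, 4.44 and 6.87% of all probes), and in forestomach 2, 2 and 1 (4.12, 3.6 and 3.89%). With a change of 1.2-fold asked as well, 0, 2 and 2 genes were left in lung (1.06, 2.33 and 3.56% of all probes), 0, 0 and 3 in liver (1.48, 3.04 and 5.15%) and 2, 1 and 0 in forestomach (2.14, 1.62 and 1.83%). The median change of the 8 genes at the highest dose was 0.03 in lung, 0.13 in liver and 0.02 in forestomach on the log2 scale, against medians over all probes of 0.00, -0.01 and 0.00.

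**Figure D2:**
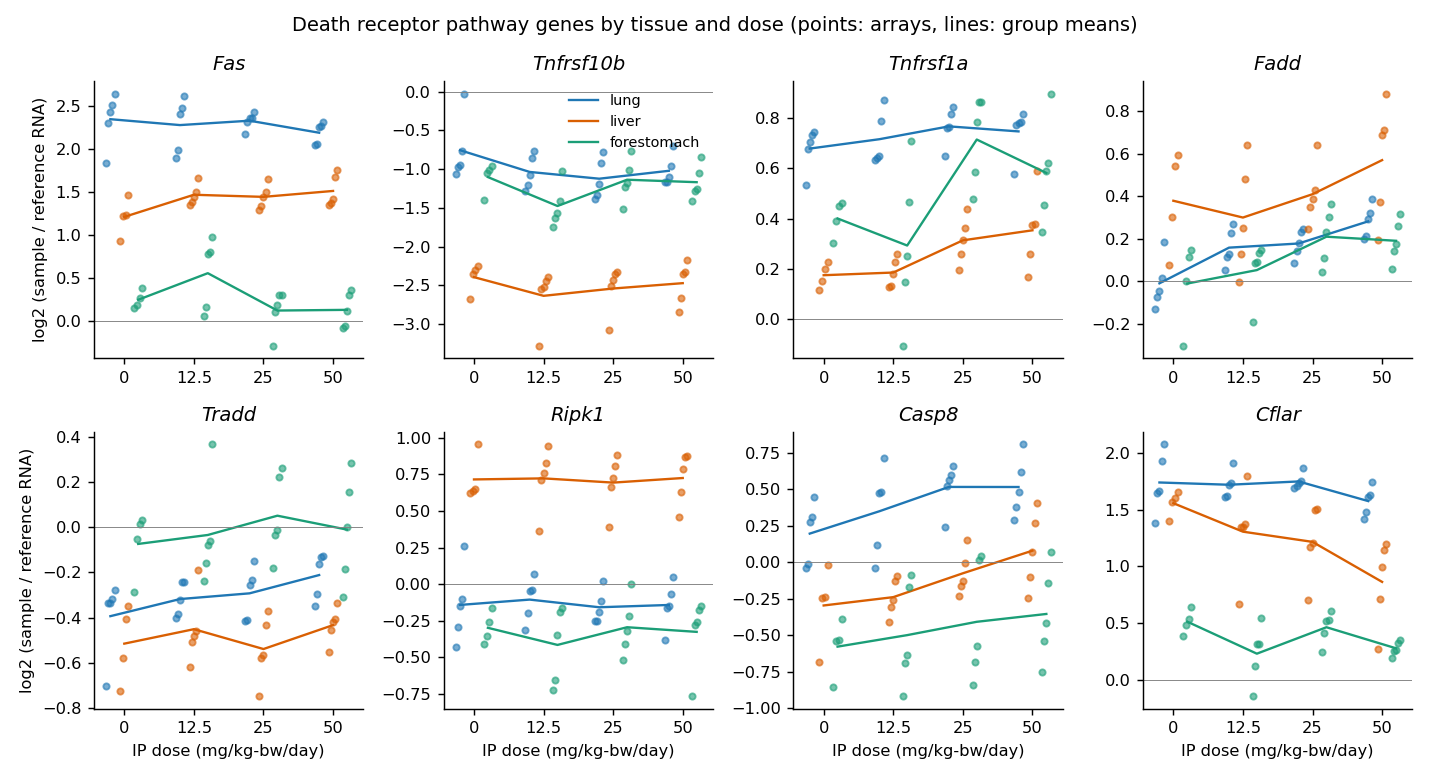
Log2 ratio of sample to reference RNA (vertical axis, brightest probe) by IP dose in mg/kg-bw/day (horizontal axis) for each gene. Points are arrays, 1 mouse each, and lines join group means in lung, liver and forestomach. Fas lies at 1.84 or more on all lung arrays and at 0.97 or less on all forestomach arrays, and Cflar in liver has a mean of 1.56 in vehicle mice and 0.86 at the highest dose, a difference that did not pass the adjusted threshold.

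**Figure D3:**
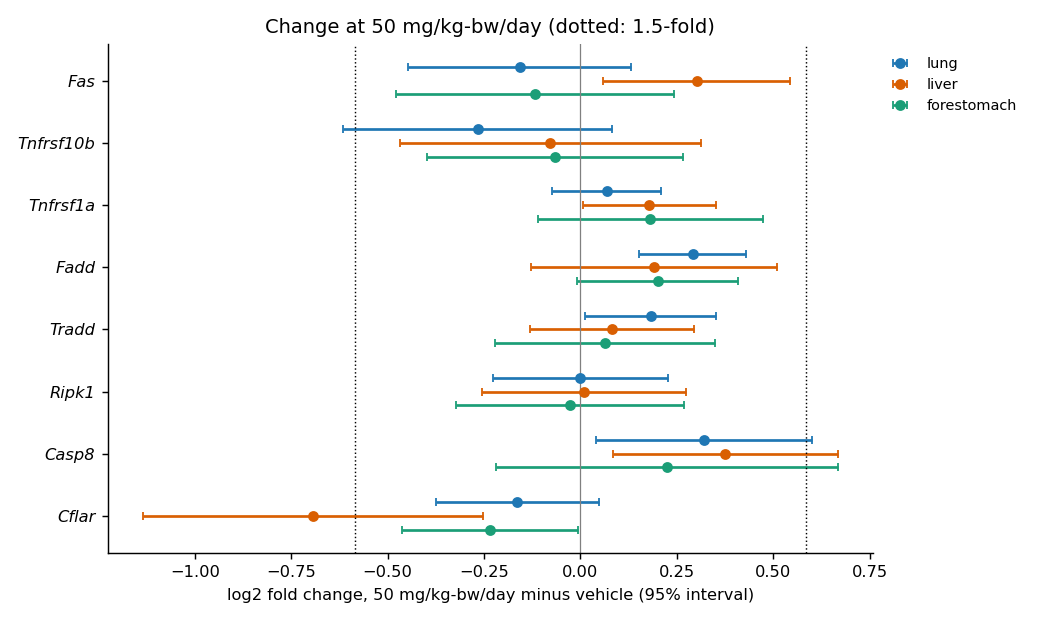
Log2 fold change at the highest dose against vehicle (points) with its 95% interval (bars) for each gene and tissue. Dotted lines mark 1.5-fold in either direction. The mean of Cflar in liver alone lies beyond a dotted line. The intervals of Fadd, Casp8 and Tradd in lung and of Casp8, Fas and Tnfrsf1a in liver lie above 0. Those of Cflar in liver and in forestomach lie below 0.

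Fadd in lung had the lowest p of the family. Vehicle mice read 0.18, -0.13, -0.07, 0.02 and -0.04, and mice at the highest dose read 0.32, 0.39, 0.20, 0.29 and 0.21. Every mouse at the highest dose lay above every vehicle mouse, which was so for 1.26% of all probes in that comparison. The difference was 0.29 ± 0.07 (log2 ± SE, 1.22-fold, 95% interval 0.15 to 0.43), with an unadjusted p of 0.000296 and an adjusted p of 0.0821 (limma). At the lowest and the middle dose the differences were 0.17 and 0.19, each with all 5 mice above the vehicle mean, and the slope over dose was 0.26 ± 0.06 per 50 mg/kg-bw/day (adjusted p = 0.107, limma). Leaving out 1 mouse at a time gave 0.26 to 0.34 at the highest dose. With median centring the differences at the rising doses were 0.29, 0.37 and 0.48, with larger p: 0.0235 unadjusted and 0.97 adjusted at the highest dose (limma).

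Each lung slide held 1 array of each dose, and on all 5 slides Fadd was higher at the highest dose than in the vehicle mouse, by 0.14, 0.52, 0.27, 0.33 and 0.20. With slide as a block the adjusted p was 0.0305 for the difference and 0.0475 for the slope (limma), at levels that 1.85% and 1.28% of all probes reached. The fold change stayed under 1.5. Each dose lay at the same array position on every lung slide, so dose and position cannot be told apart. The same was so in forestomach, and in liver the vehicle and highest-dose arrays never shared a position. Fadd also differed with the fat cell genes. The 4 vehicle lungs with high levels of those genes read -0.13 to 0.02, and the vehicle lung with a low level read 0.18, inside the range of 0.05 to 0.39 of the IP mice. All 5 fat cell genes were lower at the highest dose, by a median of -1.62, with Ucp1 past the adjusted threshold (-3.05, adjusted p = 0.0164, limma). Their mean ranged from 0.92 to 4.605 in vehicle lungs and from 0.63 to 1.53 at the highest dose. With that mean as a covariate, an alternative chosen after seeing the data, the Fadd difference was 0.047 at the lowest and at the middle dose (unadjusted p = 0.573 and 0.598) and 0.16 at the highest (unadjusted p = 0.0794), each with an adjusted p of 1 (limma). The slope was then 0.16 (adjusted p = 0.973, limma). High levels of the fat cell genes were seen in 4 of 5 vehicle lungs and in no IP lung. This covariate therefore cannot tell fat content and exposure apart, here or where it is used below.

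In the other tissues Fadd differed from vehicle without passing at any dose. Liver read 0.30, 0.08, 0.59 and 0.54 in vehicle mice and 0.37, 0.69, 0.71, 0.88 and 0.20 at the highest dose, a difference of 0.19 ± 0.15, which was 0.18, 0.20 and -0.10 within the 3 slides. At the lowest and the middle dose the liver differences were -0.08 and 0.03. Forestomach differed by 0.06 at the lowest dose, by 0.22 ± 0.10 at the middle dose and by 0.20 ± 0.10 at the highest dose (adjusted p = 1 for both, limma), with all 5 mice above the vehicle mean at the latter doses. Without vehicle mouse 2, at -0.30, the middle dose differed by 0.12 (unadjusted p = 0.21, limma). The groups overlapped in liver and in forestomach.

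The mean of Casp8 was higher at the highest dose in each tissue without passing the adjusted threshold. In lung vehicle mice read 0.31, 0.45, -0.04, -0.01 and 0.28, and those at the highest dose 0.29, 0.48, 0.62, 0.81 and 0.38. The groups overlapped, and the difference was 0.32 ± 0.13 (adjusted p = 0.474, limma). Liver values were -0.24, -0.02, -0.25 and -0.69 in vehicle mice and 0.27, -0.25, -0.10, 0.07 and 0.41 at the highest dose, a difference of 0.38 ± 0.14 (adjusted p = 0.715, limma). The liver difference was 0.23 or more within each of the 3 slides. Without vehicle mouse 5, at -0.69, it was 0.25 (unadjusted p = 0.0857, limma). The mice at 0.27 and 0.41 were those on the brighter arrays, on which Casp8 had a mean of 0.04 against -0.18 on the other 14. Without the brighter arrays the difference was 0.20 (unadjusted p = 0.153, limma), and with median centring 0.93 (adjusted p = 0.191, limma). In forestomach the difference was 0.22, with a 95% interval of -0.22 to 0.67, wide beside the spread of Casp8 with the glandular stomach genes.

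The largest difference of any member was that of Cflar in liver. Vehicle mice read 1.57, 1.61, 1.66 and 1.40 on the brightest probe. Mice at the lowest dose read 1.35, 1.80, 1.38, 0.66 and 1.35, and those at the middle dose 1.496, 1.51, 1.21, 1.17 and 0.70. At the highest dose the values were 0.71, 1.14, 1.201, 0.99 and 0.27, all below the vehicle mice, which 1.59% of all probes also showed. The difference there was -0.69 ± 0.21 (0.62-fold, 95% interval -1.14 to -0.25), with an unadjusted p of 0.00382 and an adjusted p of 0.651 (limma). The slope over dose was -0.66 ± 0.19 per 50 mg/kg-bw/day (adjusted p = 0.503, limma).

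The 3 Cflar probes gave different sizes in liver. The second probe for the same transcript differed by -0.70 ± 0.27 and also did not overlap, with vehicle mice at 1.13, 0.90, 0.97 and 0.81 and mice at the highest dose at 0.06, 0.64, 0.39, 0.33 and -0.14. The NM_009805 probe differed by -0.30 ± 0.24, with 2 of 5 mice above the vehicle mean. Cflar was also lower on the 5 brighter liver arrays, at 0.27 to 1.21, than on most of the other 14, at 0.99 to 1.80. Without the brighter arrays, an alternative chosen after seeing the data, the difference was -0.45 with an unadjusted p of 0.00223 and an adjusted p of 0.308 (limma). With median centring it was -0.02. Within the 3 liver slides the differences were -0.88, -0.56 and -0.69.

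In forestomach, Cflar at the highest dose read 0.26, 0.26, 0.19, 0.33 and 0.35, below all 4 vehicle mice at 0.39, 0.53, 0.49 and 0.64, as 0.769% of all probes were. The difference was -0.23 ± 0.11 (adjusted p = 1, limma) and 0.081 with median centring, and the other probes, at 0.07 and 0.01, showed no such separation. At the middle dose it was -0.05, so the means did not follow the order of the doses. The lung difference at the highest dose was -0.16 ± 0.10 with overlapping groups, and -0.10 and 0.08 on the other probes. Whether the Cflar effect differed between tissues was tested directly. The effect at the highest dose was 0.53 ± 0.21 higher in lung than in liver (adjusted p = 0.617, limma) and 0.46 ± 0.22 higher in forestomach than in liver (adjusted p = 0.798, limma), and neither passed.

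**Figure D4:**
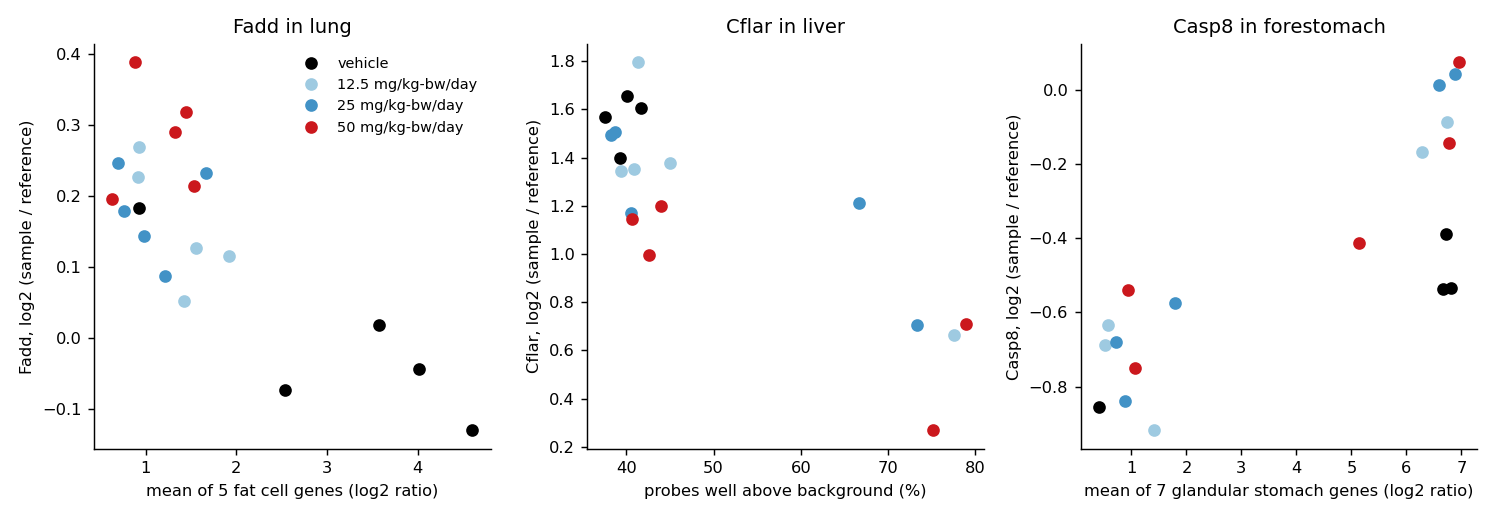
Each point is 1 array, coloured by dose. Left, Fadd in lung against the mean of 5 fat cell genes (both log2 ratios): 4 vehicle lungs lie apart at 2.54 or more. Middle, Cflar in liver against the percent of probes well above background: 5 arrays lie above 60%. Right, Casp8 in forestomach against the mean of 7 glandular stomach genes (both log2 ratios): 9 arrays lie at 1.80 or less and 10 at 5.14 or more.

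The receptors differed from vehicle in either direction. Fas in liver read 0.93, 1.46, 1.22 and 1.23 in vehicle mice and 1.34, 1.75, 1.67, 1.37 and 1.41 at the highest dose, with overlap. The liver difference was 0.26, 0.23 and 0.30 at the 3 rising doses (SE 0.12, unadjusted p = 0.0389, 0.0592 and 0.0176, adjusted p = 1, 0.904 and 0.716, limma). Without vehicle mouse 1, at 0.93, that at the lowest dose was 0.16 (unadjusted p = 0.18, limma). With median centring the differences at the lowest and the highest dose were 0.60 and 0.88 (adjusted p = 0.736 and 0.191, limma). In lung Fas differed by -0.16 at the highest dose, and the effect in lung minus that in liver was -0.46 ± 0.21 (adjusted p = 0.675, limma). In forestomach at the lowest dose 3 mice read 0.97, 0.77 and 0.80 and the others 0.06 and 0.17, against 0.14 to 0.38 in vehicle mice.

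Tnfrsf10b, the TRAIL receptor, lay lower at each dose in lung, by -0.28, -0.37 and -0.27 (SE 0.17). The vehicle lung of mouse 2 read -0.02 while the other 4 read -1.06 to -0.77, and without it the difference at the middle dose was -0.19 in place of -0.37. That lung also had the highest mean of fat cell genes, 4.605. With median centring the difference at the middle dose was -0.12. In forestomach Tnfrsf10b differed by -0.37 ± 0.16 at the lowest dose (unadjusted p = 0.0299, adjusted p = 0.977, limma). Tnfrsf1a in forestomach read 0.79, 0.86, 0.59, 0.86 and 0.48 at the middle dose, above the vehicle mice at 0.30, 0.39, 0.46 and 0.45, as 0.927% of all probes were. The difference was 0.31 ± 0.14 (adjusted p = 1, limma), and 0.21 ± 0.14 with overlapping groups on the second probe. In liver Tnfrsf1a differed by 0.18 ± 0.08 at the highest dose (adjusted p = 0.723, limma), and by -0.00 ± 0.13 on its second probe. Without the brighter arrays the first was 0.092, and with median centring 0.75 (adjusted p = 0.191, limma).

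The remaining genes differed least. Tradd in lung read -0.33, -0.70, -0.33, -0.28 and -0.32 in vehicle mice and -0.13, -0.35, -0.16, -0.13 and -0.29 at the highest dose. The difference of 0.18 ± 0.08 (adjusted p = 0.518, limma) was 0.10 without vehicle mouse 2. Ripk1 differed from vehicle at the highest dose by -0.00 ± 0.11 in lung, by 0.01 ± 0.13 in liver and by -0.03 ± 0.14 in forestomach. The 95% intervals of Ripk1, -0.23 to 0.23, -0.26 to 0.27 and -0.32 to 0.27, all stay within 1.5-fold in either direction.

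Over all doses in 1 test, no gene had a slope past an adjusted p of 0.05 (limma; 0.14% of all probes did in lung and 0% in liver and in forestomach). At an unadjusted p under 0.05 there were 3 genes in lung (Fadd, Casp8 and Tradd, 8.81% of all probes), 4 in liver (Casp8, Cflar, Fas and Tnfrsf1a, 6.98%) and 1 in forestomach (Fadd, 4.3%). No effect at the highest dose differed between 2 tissues at an adjusted p of 0.05 (0.0162% of all probes for lung minus liver, 0.0144% for forestomach minus lung and 0.00359% for forestomach minus liver). At an unadjusted p under 0.05 these were 2, 0 and 1 of 8 genes (7.08, 2.91 and 6.17% of all probes).

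The same animals carried marked signs of exposure in lung. Cyp1b1, a P450 enzyme under control of the aryl hydrocarbon receptor, rose by 3.64 ± 0.45 at the highest dose (adjusted p = 0.00145, limma) and Ahrr, the repressor of that receptor, by 2.50 ± 0.28 (adjusted p = 0.000359, limma). Cyp1a1, the classical target, differed by 4.24 ± 0.98 with an adjusted p of 0.0837 (limma). With the mean of the fat cell genes as a covariate, Ahrr was called (2.77, adjusted p = 0.0179, limma). Cyp1b1 then was not (3.69, adjusted p = 0.148, limma). With median centring Cyp1b1 and Ahrr both were (adjusted p = 0.0253 and 0.00275, limma). In liver and forestomach the largest change of these 4 genes at the highest dose, Nqo1 being the fourth, was 0.44 and 1.03, both for Cyp1a1, and none passed.

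Of 70 other genes listed around the pathway, 0, 1 and 1 were called in lung at the 3 rising doses and 0 at every dose in liver and forestomach. At the highest dose the unadjusted p was under 0.05 for 12 higher and 4 lower genes in lung, where 5.04% and 3.76% of all probes were higher and lower at that level. In liver these were 3 and 5 genes (2.45% and 4.43% of all probes), and in forestomach 5 and 2 (2.05% and 1.84%). The gene called in lung at the middle and the highest dose was Bax, the pore-forming effector of the mitochondrial pathway and a p53 target. It rose by 0.59 ± 0.10 (adjusted p = 0.0381, limma) and 0.79 ± 0.10 (adjusted p = 0.00148, limma), from -1.02 ± 0.21 (SD, n = 5) in vehicle mice to -0.23 ± 0.18 (n = 5) at the highest dose. With the mean of the fat cell genes as a covariate these were 0.46 and 0.67, with adjusted p of 1 and 0.411, and with median centring 0.81 and 1.01, with adjusted p of 0.981 and 0.394 (limma), so that neither was called in these settings.

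Among 14 p53 targets other than the death receptors, 5 were higher and 1, Perp, lower in lung at the highest dose at an unadjusted p under 0.05, as 5.04% and 3.76% of all probes were. Phlda3, an inhibitor of Akt signalling, rose by 0.56 ± 0.11 (adjusted p = 0.0295, limma) and stayed under 1.5-fold. With Bax it was 1 of 2 genes of the list at an adjusted p under 0.05, a level that 0.199% of all probes reached. With median centring Phlda3 differed by 0.78 (adjusted p = 0.97, limma), and with the mean of the fat cell genes as a covariate by 0.49. It passed the adjusted threshold in neither setting, but did with slide as a block (0.56, adjusted p = 0.00292, limma), still under 1.5-fold. Gdf15, a stress-induced cytokine, differed by 0.85 ± 0.19 and Aen, an apoptosis-enhancing nuclease, by 0.39 ± 0.09 (adjusted p = 0.0785 and 0.0851, limma). Gdf15 passed both thresholds with slide as a block (0.85, adjusted p = 0.00166, limma) but not with median centring (1.03, adjusted p = 0.97, limma). Aen passed the adjusted threshold alone with slide as a block (0.39, adjusted p = 0.0124, limma). With median centring it did not (0.63, adjusted p = 0.97, limma). The median of the list was 0.18, against 0.03 for the 8 death receptor genes. Fas and Tnfrsf10b, which p53 can also drive, lay at -0.16 and -0.27 there (adjusted p = 0.855 and 0.734, limma). Whether the lists differ from each other was not tested.

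The 3 necroptosis genes were each higher in lung at the highest dose. Ripk3, the kinase that Ripk1 engages when caspase-8 is blocked, differed by 0.38 ± 0.09 (adjusted p = 0.097, limma). Its groups did not overlap, as was so for 1.26% of all probes in the higher direction. Mlkl, the substrate of Ripk3, differed by 0.43 ± 0.14 and the nucleic acid sensor Zbp1 by 0.47 ± 0.22 (adjusted p = 0.289 and 0.55, limma). None was called. All 5 B cell genes were higher in the same comparison too, by a median of 0.77, with a mean level of 0.24 to 1.86 in vehicle lungs and 1.65 to 2.24 at the highest dose, 3 of them with an unadjusted p under 0.05 and none called. With the mean of the fat cell genes as a covariate, Ripk3, Mlkl and Zbp1 differed by 0.42, 0.39 and 0.33. Their unadjusted p was then 0.00487, 0.0723 and 0.306 (limma), and none was called. With slide as a block their adjusted p was 0.0288, 0.00129 and 0.212 (limma), and all stayed under 1.5-fold. In that setting 1.85% of all probes had an adjusted p of 0.05 or less. With median centring the adjusted p was 0.97 for each (limma). All 4 measured macrophage genes (median 0.13) and all 4 neutrophil genes (median 0.09) were higher there too. Of 6 T cell and NK cell genes 2 were higher and 4 lower. None of these was called. The part of any of these cell types in the changes of the necroptosis genes was not tested.

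The other pathway lists held no called gene at any dose in any tissue. The 6 ligands had a median of 0.11 in lung at the highest dose, from -0.12 to 0.43, and the 7 other receptors and decoys -0.08. Of 12 partners of the receptor complexes, Traf2 (0.17) and Sharpin (0.16) were higher and Ikbkg (-0.37), the regulatory subunit of the IkB kinase, lower at an unadjusted p under 0.05. In lung at the highest dose 8.8% of all probes were at that level. The inflammatory caspases Casp1 (0.34) and Casp4 (0.41) were the 2 of 9 other caspases at that level, and none of the 7 genes of the mitochondrial link and caspase inhibitors reached it. Of 12 NF-kB targets only Nfkbia, the inhibitor of NF-kB, did, at -0.39 ± 0.11 (adjusted p = 0.188, limma). In liver at the highest dose 6 of the 12 were higher and 6 lower, with a median of -0.01, and Relb, an NF-kB subunit, alone had an unadjusted p under 0.05 (0.50 ± 0.20, adjusted p = 0.718, limma). Of the 12 partners there, the deubiquitinases Tnfaip3 (-0.45 ± 0.20) and Otulin (0.31 ± 0.11) were at that level (adjusted p = 0.718 and 0.713, limma). In liver 6.87% of all probes were at it.

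**Figure D5:**
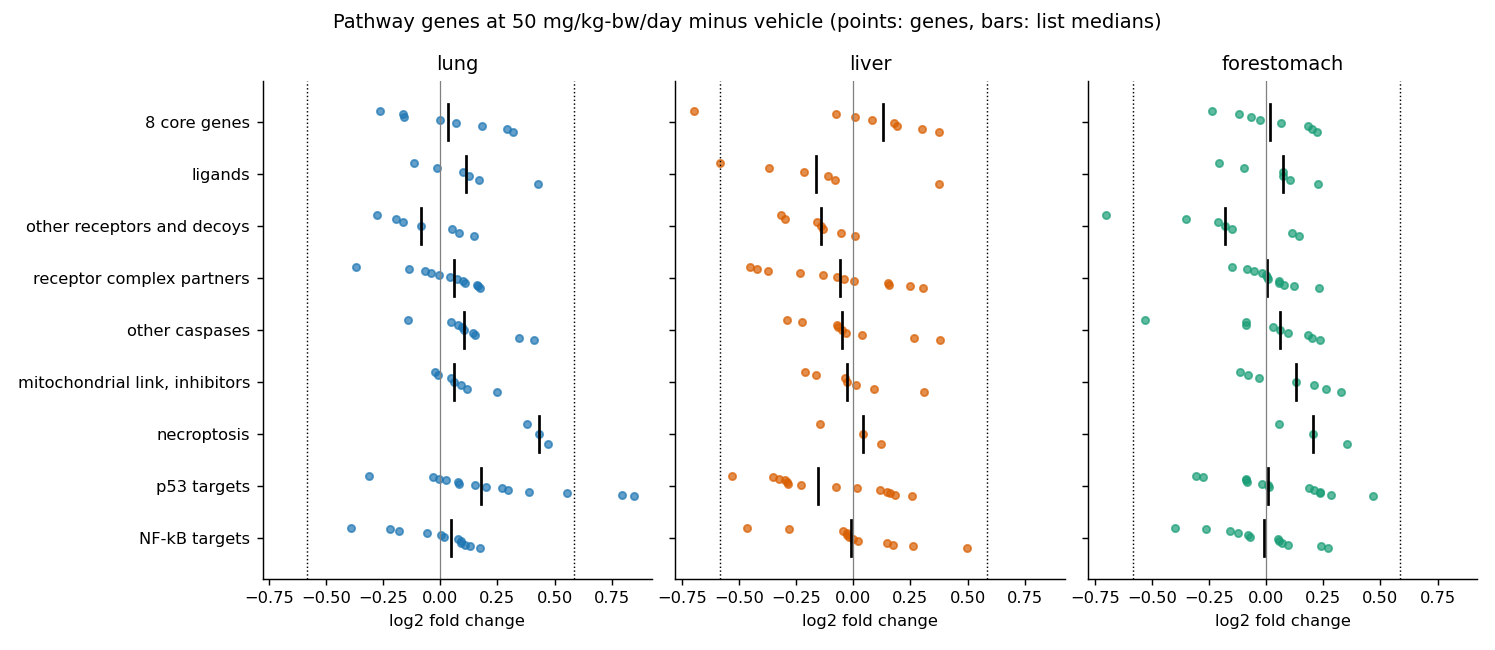
Log2 fold change at the highest dose against vehicle of each gene (points) by list, in lung, liver and forestomach, with list medians as bars and dotted lines at 1.5-fold. Most genes lie within the dotted lines, the 3 necroptosis genes lie between 0.38 and 0.47 in lung, and the p53 targets reach 0.85 there.

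Across all 58 arrays and 10532 genes, each well above background on at least 80% of the arrays of every tissue, the genes most like each member were named by Pearson's r, as a description, since tissue differences shared by many genes set most of it. Fas was most like S1pr1 (0.96), Lilra6 (0.95) and Dock4 (0.94), but after removing group means these fell to 0.28, 0.26 and 0.34. Ripk1 was most like Acbd5 (0.96), Farp2 and Ghdc (0.95 each), and Tnfrsf10b like Ppm1h, Sestd1 and Kctd10 (0.95 each). Cflar was most like Gm4956 (0.94), Dlc1 and Nectin3 (0.93 each), and Tnfrsf1a like Arhgap23, Inpp5b and Chtop (0.87 each). Casp8 was most like Ptpn6, Dram2 and Adam9 (0.87 each), and within groups at 0.56, 0.68 and 0.70. Tradd was most like Cdc25a (0.86), Mrps23 and Cenpe (0.85 each), and Fadd, with the weakest likeness, like Khnyn (0.75), Fancf and Mrnip (0.72 each).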

How the data were processed

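Values were read from 58 scanner files of 2-colour Agilent 8x60K arrays. The deposited intensity columns are median signals per spot in Cy5 (sample) and Cy3 (reference), as the authors' scanner software gave them, with its flags. The authors also deposited its log10 ratio per spot and normalized log2 ratios per probe. The latter tracked the values used here in lung and forestomach but not in liver, where the correlation under the deposited probe names was near 0 for a reason not examined, and were used there in no step. Here log2(Cy5/Cy3) of the median signals, without background subtraction, was loess-normalized within each array. Outlier spots were left out and spots of a probe averaged. Of the 55681 probes, 27267 matched a RefSeq gene name. limma 3.58.1 in R 4.3.3 was fitted to all probes with Benjamini-Hochberg adjustment, in dose and slope fits per tissue and in a joint fit of all 12 groups between tissues, and was tested on simulated data. Arrays carry no counts, so their number limits the precision.

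The members and lists were chosen with earlier results of these data known. All 8 genes are named, by the brightest probe over all arrays. Of the listed genes, those past both thresholds are named, and others were named after their values were seen. Mouse numbers in the labels mark tissues of the same mouse. Same-numbered arrays deviated together little: the median correlation of deviations was 0.15 over 19 pairs of forestomach and lung, 18 of them on 1 slide, 0.04 for lung and liver and 0.02 for forestomach and liver. Alternatives tried were other normalizations, the slide or mouse as a block, dim probes left out, other thresholds and each mouse left out. Those added after seeing the data were a marker covariate, leaving out bright arrays, and no limit on fold.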

Additional observations from a re-analysis of the deposited data

Results flagged for a closer look

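In 9 of 96 groups of 4 or 5 mice, 1 mouse lay further from the others than Dixon's 95% limit allows, where chance gives about 5%. In lung, vehicle mouse 2 stood apart in Tnfrsf10b, at -0.024 against -1.06 to -0.77, and in Tradd, at -0.70 against -0.33 to -0.28. Mouse 19 at 50 mg/kg-bw/day read 0.58 for Tnfrsf1a in lung against 0.77 to 0.82. In liver, Tnfrsf10b read -3.28 in mouse 9 at 12.5 mg/kg-bw/day against -2.55 to -2.40, and -3.08 in mouse 15 at 25 mg/kg-bw/day against -2.51 to -2.33. Both are among the 5 liver arrays with many probes above background, where Tnfrsf10b had a mean of -2.87 against -2.39 on the other 14, and the part of this in the low values was not tested. Ripk1 read 0.96 in the liver of vehicle mouse 2 against 0.62 to 0.65, and -0.76 in the forestomach of mouse 18 at 50 mg/kg-bw/day against -0.28 to -0.15. On that array of mouse 18, 85.9% of probes were well above background, against 47.7% to 55.6% on the others at that dose. The part of this in the low Ripk1 value was not tested. In forestomach at 12.5 mg/kg-bw/day, Fadd read -0.19 in mouse 7 against 0.08 to 0.15, and Tradd read 0.37 in mouse 6 against -0.24 to -0.06.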

How the results depend on the processing

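Of the single-gene differences, the 68 with an unadjusted p under 0.05 or groups that did not overlap were followed in full. Of 1048 values recomputed for them, 1022 kept their direction and side of the threshold, 10 lost it, 10 gained it and 6 changed sign. Of the other 106, 69 took the other sign under 1 or more settings and 5 were called under some setting: Cflar (1.35) and Tradd (1.07) between lung and liver and Ripk1 (-0.75) and Tnfrsf10b (-0.98) between forestomach and lung with median centring, and Casp8 (-0.71) between forestomach and liver from the Cy5 signal alone. With arrays centred on their median in place of loess, the vehicle differences turned to 0.72 for Fadd and 0.35 for Ripk1 between lung and liver, -0.29 for Tradd between forestomach and lung and 0.17 for Fadd between forestomach and liver, and Cflar at 50 mg/kg-bw/day in forestomach turned to 0.081. The genes called between tissues then numbered 7 (lung and liver), 6 (forestomach and lung) and 1 (forestomach and liver) in place of 3, 3 and 4. From the Cy5 signal alone, Casp8 in lung minus liver was -0.052. The cause was not tested. With the mouse number as a replicate block, fixed or random, the tissue counts stayed at 3, 3 and 4, and it changed no other call. Leaving out 1 mouse gave 3 to 4, 3 to 3 and 4 to 4 (Casp8 between lung and liver was called, at 0.59, without the liver of vehicle mouse 2), and 0 members for every dose, slope and interaction.

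Pathway genes called in lung at 25 and 50 mg/kg-bw/day numbered 1 and 1. They became 0 and 0 with median centring, with the scanner software's ratios and with the fat cell covariate, where Bax differed by 0.46 to 0.81 and by 0.66 to 1.01, and 2 and 2 with slide as a block. With no limit on fold the count at 50 mg/kg-bw/day was 2. Slide as a block gave 1 member a slope in lung and, without a limit on fold, 1 member called at 50 mg/kg-bw/day. At an unadjusted p under 0.05 and 1.2-fold, members numbered 2 and 2 in lung at 25 and 50 mg/kg-bw/day, 3 in liver at 50, and 2 and 1 in forestomach at 12.5 and 25. Pathway genes then numbered 4, 5 and 14 in lung at the 3 doses, 5 and 7 in liver at 25 and 50, and 1, 3 and 3 in forestomach. The deposited log2 ratios were not run for liver.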
